A study of Mus musculus with 24 samples.

Results

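The regions described here carried H3K4me1 in wild-type mouse embryonic stem (ES) cells, carried it in neither wild-type embryoid body (EB) list, and had no H3K4me2 peak in wild-type ES cells. Overlapping H3K4me1 peaks of the 4 wild-type lists (2 of EB, 2 of ES) were merged over chromosomes 1 to 19, X and Y. A member had a peak in both ES lists and in neither EB list, and no overlapping peak in either wild-type ES H3K4me2 list. These steps left 1689 of 33372 merged regions, or 5.06%. The wild-type H3K4me1 and wild-type ES H3K4me2 values therefore chose the members and are given as description only.

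The libraries were made by CUT&RUN, in which an antibody directs a nuclease to cut out the chromatin that carries a mark, with antibodies to H3K4me1, H3K4me2 and PRDM16. EB were aggregates differentiated for 6 days in medium with serum, and ES cells were grown on Matrigel with serum, serum replacement and LIF, the cytokine that holds them undifferentiated. Each antibody was used in Prdm16 KO EB, wild-type EB, Prdm16 KO ES cells and wild-type ES cells, all on a C57BL/6 background, with 2 libraries in each of the 12 groups. Neither the making of the KO allele nor the clonality of the KO line is stated in the labels, and these peak lists do not check the deletion. Nothing in the labels ties the paired libraries to separate cultures, so p-values reflect only library-to-library spread, which may be technical. Some H3K4me2 libraries, KO ES replicate 2 and wild-type EB replicate 2, belong to another library series by their titles, as do PRDM16 KO ES replicate 1 and wild-type ES replicate 2 to yet another. Peaks at marker genes ran against the stage labels. Of 8 markers of differentiated EB, 1 and 2 had an H3K4me1 peak in wild-type EB, against 6 and 4 in wild-type ES cells, and 1 and 1 had an H3K4me2 peak in wild-type EB, against 4 and 4 in wild-type ES cells. Of 10 ES markers, 4 and 4 had H3K4me1 in wild-type EB, against 2 and 4 in wild-type ES cells, and 5 and 8 had H3K4me2 in wild-type EB, against 4 and 5 in wild-type ES cells. Of 8 feeder or fibroblast markers, 4 and 3 had H3K4me1 in wild-type EB, against 4 and 4 in wild-type ES cells, and 4 and 6 had H3K4me2, against 6 and 6. A peak at a gene is not its expression, and "ES" and "EB" below are the stages as labelled.

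A single methyl group on lysine 4 of histone H3 is placed mainly by the MLL3 and MLL4 (KMT2C and KMT2D) complexes and is typical of enhancers, active or poised, and of the flanks of promoters. Addition of a further methyl group gives H3K4me2, found at both enhancers and promoters, and regions with H3K4me1 alone are often weaker or primed enhancers. PRDM16, a transcriptional regulator with zinc fingers and a PR domain, is best known from brown fat and blood stem cells.

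The letters of 4 promoters are examples of differing base composition among gene starts that lay inside members, and do not span its full range. They are given as windows of 300 bases, from 250 bases before to 50 after the annotated start, credited to RefSeq (GRCm38.p6, the same coordinates as the mm10 build of the files). Capitals mark CG dinucleotides, the sites of DNA methylation that are dense in CpG islands. These windows were chosen after their values were seen. Cyp26a1 encodes an enzyme that degrades retinoic acid, and Notch1 a receptor read out between neighbouring cells; both windows are rich in CG. Pdgfra encodes a receptor of platelet-derived growth factor and Kcnk4 a potassium channel; both windows are poor in CG.
Cyp26a1, chr19:37697558-37697857, plus strand: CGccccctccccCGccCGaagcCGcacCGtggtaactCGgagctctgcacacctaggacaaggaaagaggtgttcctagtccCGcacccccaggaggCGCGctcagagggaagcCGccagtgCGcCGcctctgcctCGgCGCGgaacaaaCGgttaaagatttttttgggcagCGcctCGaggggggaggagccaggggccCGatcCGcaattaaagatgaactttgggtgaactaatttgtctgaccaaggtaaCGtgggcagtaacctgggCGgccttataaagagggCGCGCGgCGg
Notch1, chr2:26503773-26504072, minus strand: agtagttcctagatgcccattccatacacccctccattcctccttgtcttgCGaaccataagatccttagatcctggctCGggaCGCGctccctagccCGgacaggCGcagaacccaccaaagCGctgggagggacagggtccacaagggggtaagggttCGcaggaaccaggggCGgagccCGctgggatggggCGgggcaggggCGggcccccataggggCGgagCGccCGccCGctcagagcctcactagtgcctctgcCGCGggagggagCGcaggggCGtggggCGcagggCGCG
Pdgfra, chr5:75152001-75152300, plus strand: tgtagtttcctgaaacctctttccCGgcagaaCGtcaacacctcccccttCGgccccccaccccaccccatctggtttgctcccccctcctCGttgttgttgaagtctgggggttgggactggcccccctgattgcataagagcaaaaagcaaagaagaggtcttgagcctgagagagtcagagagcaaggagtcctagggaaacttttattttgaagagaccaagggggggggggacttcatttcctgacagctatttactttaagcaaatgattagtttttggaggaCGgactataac
Kcnk4, chr19:6934466-6934765, minus strand: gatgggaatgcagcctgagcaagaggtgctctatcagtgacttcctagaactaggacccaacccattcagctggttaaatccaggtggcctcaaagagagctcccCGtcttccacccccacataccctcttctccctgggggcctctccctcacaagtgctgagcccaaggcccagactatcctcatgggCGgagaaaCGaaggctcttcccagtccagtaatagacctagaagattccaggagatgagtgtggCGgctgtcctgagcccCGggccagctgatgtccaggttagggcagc

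By the ratio of observed to expected CG, the Cyp26a1 window had 0.894 with 26 CG sites and the Notch1 window 0.660 with 23. The same ratio was 0.256 in the Pdgfra window and 0.204 in the Kcnk4 window, each with 5 CG sites. The H3K4me1 regions around them were 4456 to 9023 bp wide and reached past both edges of each window. None of the 4 had an H3K4me2 peak in either wild-type EB list, while the Notch1 region had one in both KO EB lists and the Kcnk4 region in 1.

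Across all gene starts of the RefSeq table that lay wholly inside a member, 54 windows of 50 genes were found. Their median CG ratio was 0.498 and 17 of 54 (31.5%) had a ratio above 0.6. Regions that were likewise ES-only for H3K4me1 but had H3K4me2 in both wild-type ES lists held 291 such windows, with a median of 0.622 and 154 (52.9%) above 0.6. H3K4me1 regions present in all 4 wild-type lists and free of H3K4me2 in ES cells, called kept regions, had a median of 0.483 over 35 windows. EB-only regions without H3K4me2 in ES cells had 0.316 over 168 windows. All merged H3K4me1 regions had 0.510 over 2201 windows with 39.7% above 0.6, and all 21263 starts in the table had 0.567 with 47.6% above 0.6. The median of gene starts inside members was thus near those of all H3K4me1 regions and of kept regions. It was below that of ES-only regions with H3K4me2 and above that of EB-only regions, as a description of these windows.

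Short motifs were counted on either strand of the same windows. The E-box CAGGTG, bound by several zinc finger and basic helix-loop-helix proteins, was in 14 of 54 member windows (25.9%), against 23.7% of those in ES-only regions with H3K4me2, 26.8% of those in EB-only regions, 24.0% of those in all H3K4me1 regions and 19.7% of all starts. The OTX motif GGATTA was in 6 (11.1%), against 6.42% of all starts, and the AP-1 motif TGANTCA in 6, against 6.99%. In starts inside all H3K4me1 regions these shares were 5.72% and 7.09%, and in EB-only regions 8.33% and 10.7%. The GATA motif AGATAA was also in 6 windows, against 9.65% of all starts, and the TEAD motif GGAATG in 8 (14.8%), against 13.6%. The ESRRB motif CAAGGTCA was in 1 window, and the octamer ATGCAAAT, the SOX motif ACAATGG and the KLF motif GGGTGTGG were in none, against 1.34%, 1.66%, 2.92% and 3.63% of all starts in that order. With 54 windows, differences of a few percentage points between these shares rest on single windows.

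Only peak lists were used, so sequencing depth is unknown, and a region without a peak is not a region without the mark. Of 15 housekeeping genes, 6 and 7 had an H3K4me2 peak in wild-type ES replicates 1 and 2. KO EB H3K4me1 lists held 8943 and 5990 peaks and wild-type EB lists 14082 and 13260, while KO ES lists held 14945 and 13901 and wild-type ES lists 15435 and 12746. For H3K4me2, KO EB lists held 15205 and 13818 peaks and wild-type EB lists 14334 and 19246, while KO ES lists held 29138 and 32874 and wild-type ES lists 24600 and 22615. In such bulk material, fewer cells that carry a mark and less mark per cell cannot be told apart.

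In wild-type ES cells the members were ordinary H3K4me1 peaks. Each peak has a score, which is the authors' own value with its unit not given in the sources used here, never below 50, and it was used only to rank peaks within a list. The members' median score was 85.6 (range 50.06 to 257.01) in replicate 1, at the 56.0th percentile of that list, and 78.7 (50.05 to 257.6) in replicate 2, at the 49.3rd. Their median width was 2411 bp (620 to 9698), against 2993 bp for ES-only regions with H3K4me2 and 3911 bp for kept regions. Together they covered 4.59 Mb. One step outside the rule were 4227 regions with a peak in 1 ES list only, 320 regions with a peak in 1 EB list as well, and 950 with H3K4me2 in 1 ES list.

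The members lay mostly away from gene ends. By the rule none overlapped a wild-type ES H3K4me2 peak or a wild-type EB H3K4me1 peak, so only the distance to such peaks is described. The median distance to the nearest wild-type ES H3K4me2 peak was 13586 bp, against 15036 bp for kept regions and 25633 bp for EB-only regions without H3K4me2. Within 1000 bp of one lay 65 members (3.85%), against 3.10% and 2.15% of those sets. The nearest wild-type EB H3K4me1 peak was a median of 24435 bp away, against 24943 bp for ES-only regions with H3K4me2. Of the 1689, 345 (20.4%, 95% Wilson interval 18.6 to 22.4) lay within 2500 bp of an end of a protein-coding gene, 712 (42.2%) lay deeper inside a gene span, and 632 (37.4%) lay outside gene spans. The share at gene ends was 35.4% of ES-only regions with H3K4me2, 23.2% of kept regions, 12.5% of EB-only regions without H3K4me2 and 26.7% of all regions. At over 50000 bp from any gene end lay 23.6% of members, against 16.7%, 28.5%, 40.7% and 25.7% in the same order of sets. The gene table used here has no exons, so exon, intron and UTR were not resolved, and intervals cover counting error only.

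**Figure D1:**
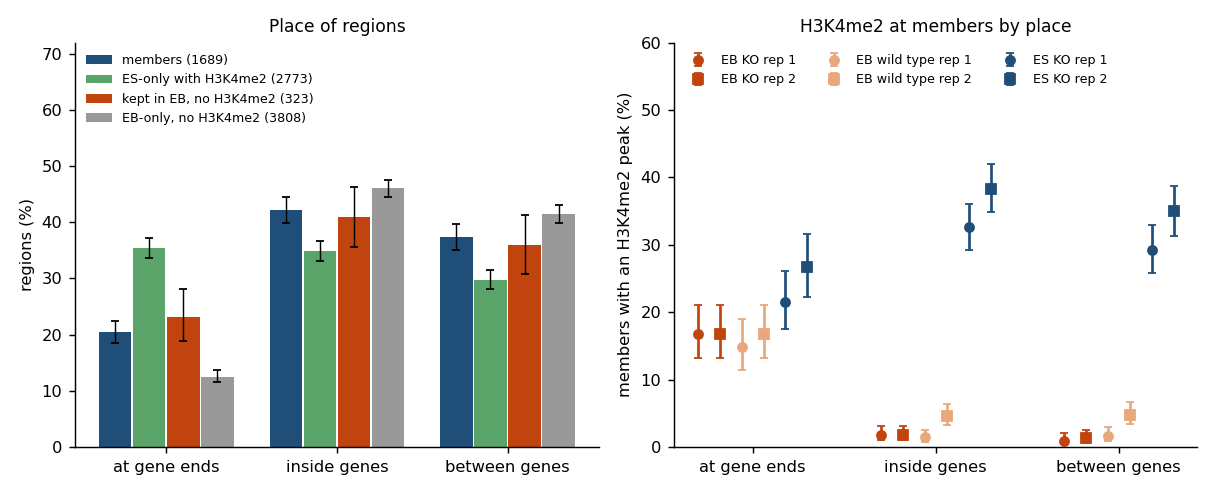
Left: share of regions (%, bars from 0, whiskers 95% Wilson intervals) within 2500 bp of a gene end, deeper inside genes and between genes, for the members and 3 sets of H3K4me1 regions. Right: share of members (%) with an H3K4me2 peak in each library, by the same 3 places; at gene ends the 4 EB libraries lie between 14.8% and 16.8%, elsewhere below 5%.

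Members were scattered along the chromosomes. Neighbours on a chromosome were a median of 626523 bp apart, 1600 members had no other within 12500 bp, 80 formed 40 pairs, and 3 runs held 3 each. One run lay in Sh3rf1 (chr8:61416476-61437518), whose product is a ubiquitin ligase and scaffold of the JNK pathway; all 3 of its regions had H3K4me1 and H3K4me2 in both KO ES lists. Another lay just before and into Kank3 (chr17:33803908-33822708), where 1 of the 3 had H3K4me2 in both KO EB lists and in 1 wild-type EB list. The third lay upstream of Trim24 (chr6:37843415-37865458), and its 3 regions all had H3K4me1 in both KO ES lists. Of 21887 protein-coding genes, 1096 (5.01%) had a member in their span plus 2500 bp. Camk1d, Dpp6 and Wwox held 4 each, with spans of 421404, 910144 and 913078 bp, and Fer, Kat7, Pard3, Ptprg and Sh3rf1 held 3 each. Kat7, which encodes a histone acetyltransferase, was the shortest of these genes at 38394 bp. Its members chr11:95303789-95309039 and chr11:95311416-95317132 lay on the 2 sides of its start on the minus strand, and both had H3K4me2 in both KO EB and both wild-type EB lists.

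Most members had an H3K4me1 peak in KO ES cells, and few had one in KO EB, so the stage difference on which they were chosen was also present in the KO libraries. An H3K4me1 peak was found at 80 and 45 members in the 2 KO EB libraries (4.74% and 2.66%), against 1139 and 1090 members in the 2 KO ES libraries (67.4% and 64.5%). Means were 3.70 ± 1.47% in KO EB and 66.0 ± 2.05% in KO ES cells (SD, n = 2 each), a difference of -62.3 percentage points. The groups did not overlap, and the two-sided exact permutation p over 6 assignments of libraries was 0.333, the smallest this design allows. Nor did they overlap over all 33372 regions, where the shares were 18.0% and 12.9% in KO EB and 34.3% and 33.0% in KO ES cells. With the lists of each antibody cut to equal length, the rule was applied again and chose 1162 regions. The difference over these was -54.9 points.

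**Figure D2:**
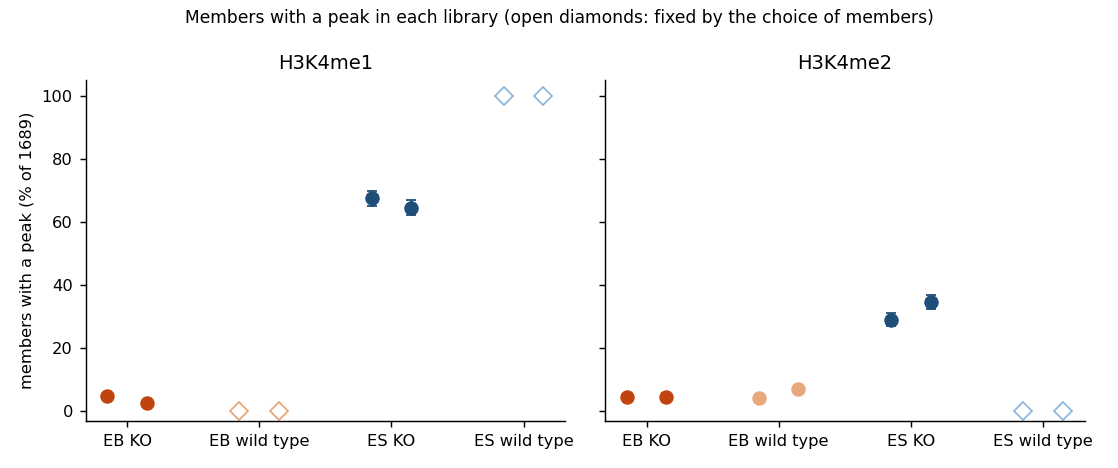
Share of the 1689 members (%) with an H3K4me1 peak (left) or an H3K4me2 peak (right) in each library; circles are libraries with 95% Wilson intervals, and open diamonds are values fixed by the choice of members. H3K4me1 lies below 5% in both KO EB libraries and above 60% in both KO ES libraries, and H3K4me2 is below 8% in all EB libraries and 29.1% and 34.7% in KO ES cells.

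Taken per member, 874 (51.7%) had H3K4me1 in both KO ES lists, against 24.0% of all 33372 regions, many of which had no wild-type ES peak. In 481 members 1 KO ES list had a peak, and in 334 (19.8%) neither had, against 13.1% of the 8611 regions with H3K4me1 in both wild-type ES lists. In KO EB, 19 members (1.12%) had a peak in both lists, against 7.86% of all regions, and 1583 had none. Beyond the lists that chose them, 338 members (20.01%) had peaks in both KO ES H3K4me1 lists and in no other list, and 216 (12.8%) had no peak at all.

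Because members must have a peak in both wild-type ES lists, the wild-type value of 100% is no measure against which to read the KO value. Regions were therefore also chosen by the same rule without 1 wild-type library, and the KO lists were set beside the library left out, an alternative chosen after seeing the data. Without wild-type ES replicate 1, 3317 regions met the rule; KO ES lists had a peak at 51.6% and 50.3% of them, against 52.0% in the left-out wild-type library. Without replicate 2, 4416 regions met it; the KO values were 46.5% and 44.3%, against 40.3%. With the 4 ES lists cut to their 12746 highest scores, the KO values were 46.6% and 47.7%, against 46.1% in wild-type replicate 1, and 47.3% and 47.6%, against 46.4% in wild-type replicate 2. The mean of the KO lists minus the left-out library was -1.04 and 5.07 points with full lists and 1.04 and 1.03 points with equal lists. Part of the regions thus lacked a peak in any ES list that had not chosen them, KO or wild type.

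In EB the same comparison changed direction with list length. Without wild-type EB replicate 1, 6.75% and 4.28% of 1867 regions had a peak in KO EB, against 9.53% in the left-out wild-type library. Without replicate 2 the values were 6.68% and 3.91% of 1841 regions, against 8.26%. With the 4 EB lists at 5990 peaks each they were 6.37% and 6.12%, against 3.94%, and 6.63% and 6.15%, against 5.68%. No direction of a KO difference in EB is read from these values.

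**Figure D3:**
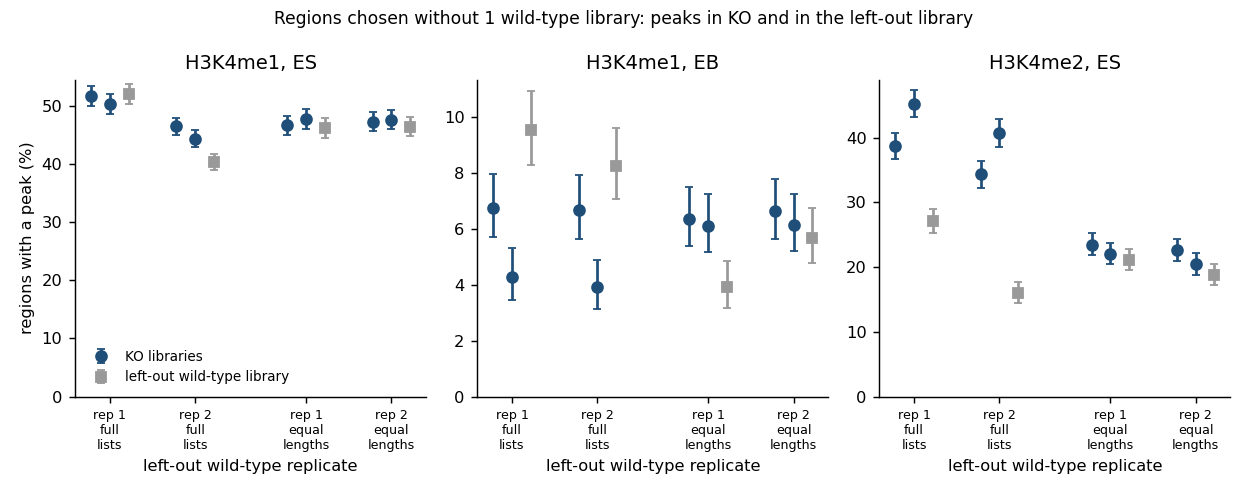
Share of regions (%, 95% Wilson intervals) with a peak in the 2 KO libraries (circles) and in the wild-type library left out of the choice of regions (squares), with lists at full length and at equal length. The KO values above the wild-type value for H3K4me2 in ES cells are near it once lists have equal length.

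Members with stronger wild-type peaks more often had a peak in KO ES cells. Members were put into 5 groups of 337 or 338 by the lower of their 2 within-list score percentiles. In the weakest group 48.8% and 47.9% had H3K4me1 in the 2 KO ES lists, and in the strongest 86.9% in both. H3K4me2 in KO ES cells was at 22.5% and 31.1% of the weakest group and at 42.7% and 44.2% of the strongest. The EB lists showed no such order: H3K4me2 was at 5.62% and 5.92% of the weakest group in KO EB and at 2.67% of the strongest in both KO libraries. Median width was 2045.5 bp in the weakest group and 2670 bp in the strongest, and its part in the result was not tested.

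**Figure D4:**
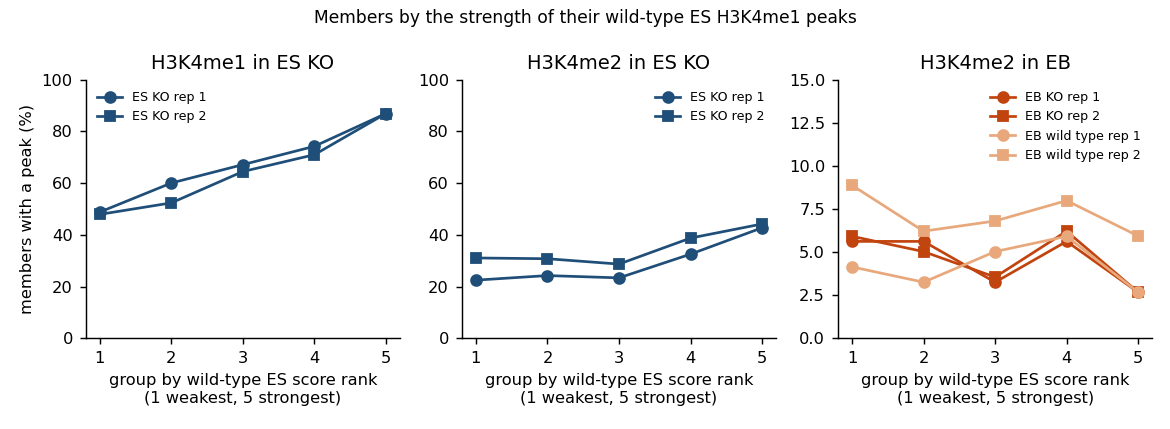
Share of members (%) with a peak, by 5 groups of wild-type ES H3K4me1 score rank from weakest (1) to strongest (5), for each library (circles replicate 1, squares replicate 2; the right axis runs to 15%). H3K4me1 in KO ES cells is under 50% in group 1 and 86.9% in group 5, while H3K4me2 in EB stays below 9%.

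The highest-ranked members at a gene had H3K4me1 in the KO ES lists as well. Among them were AW554918, St7 and a region 1468 bp from Efnb1 (chrX:99150491-99153160), the gene of the ligand ephrin-B1. The Efnb1 region had scores of 209.54 and 201.63 in the wild-type ES lists, and its peaks ranked at the 87.04th and 80.95th percentiles in KO ES cells. The Kif3a region (chr11:53598198-53600727), in the gene of a motor subunit that carries cargo into cilia, ranked at the 99.8th and 99.3rd percentiles in KO ES cells. Skida1, Atxn7 (a subunit of the SAGA acetyltransferase complex), Rufy1, Znrf3 (a ligase that removes Wnt receptors), Upf2 (a factor of nonsense-mediated decay), Myh11 (smooth muscle myosin) and Ints4 (an Integrator subunit) were also among the highest. Of these 11 members, 10 had H3K4me1 in both KO ES lists and Myh11 in 1, and none had it in a KO EB list.

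The highest-ranked members without H3K4me1 in either KO ES list lay in or near Plekhd1, Rims2, Unc5d, Gab1, Ift80, Gxylt1, 9430038I01Rik and Cntnap2. Plekhd1 (chr12:80713367-80716573) had wild-type ES scores of 183.32 and 145.94, and Rims2 (chr15:39645674-39648088), a gene of the presynaptic release site, 126.84 and 219.85. The Rims2 region had H3K4me2 in both KO ES lists. Gab1 (chr8:80868745-80871511) encodes an adaptor of receptor tyrosine kinases; its region, with wild-type scores of 123.32 and 118.65, had H3K4me1 and H3K4me2 in 1 KO EB list each. Unc5d encodes a netrin receptor and Cntnap2 a neurexin-like adhesion protein, and their regions were 121942 and 1095000 bp from the nearest gene end.

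H3K4me2 was found at about 5% of members in EB of either genotype. KO EB libraries had it at 77 and 79 members (4.56% and 4.68%), against 71 and 121 (4.20% and 7.16%) in wild-type EB. Means were 4.62 ± 0.0837% in KO EB and 5.68 ± 2.09% in wild-type EB (SD, n = 2 each), a difference of -1.07 percentage points with an exact two-sided permutation p of 1. The wild-type values lay on both sides of the KO values. Without wild-type replicate 2, the library of the other series, the difference was 0.41 points, and without replicate 1 it was -2.55 points. Both KO EB lists had H3K4me2 at 52 members, against 18.3% of all regions, and both wild-type EB lists also at 52 (3.08% of members in each case), against 22.1% of all regions. Presence in both KO EB and neither wild-type EB list was seen at 10 members (0.592%), against 1.03% of all regions, and the reverse at 12 (0.710%), against 3.34%.

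Members at gene ends had H3K4me2 in EB more often than other members in each of the 4 libraries. In KO EB 58 and 58 of the 345 members at gene ends had it (16.8% in both), and in wild-type EB 51 and 58 (14.8% and 16.8%). Gene ends thus held most of the members with H3K4me2 in both KO EB libraries (58 of 77 and 58 of 79) and in wild-type replicate 1 (51 of 71), but not in wild-type replicate 2 (58 of 121), the library of the other series. At the other 1344 members the mean over the 4 EB libraries was 2.29%, a difference of 14.0 points (12.1 to 15.4 in single libraries), with a two-sided exact sign permutation p of 0.125, the smallest possible over 4 libraries. Members at gene ends were wider, at a median of 3237 bp against 2223.5 bp. Among members no wider than the median the difference was 4.22 points, and among wider ones 17.3 points, a division made after seeing the data. The same comparison over all 33372 regions gave 56.5% at gene ends and 14.3% elsewhere. Those regions include many with H3K4me2 in wild-type ES cells, and the part of this in the lower level at members was not tested. Over the kept regions, which lack it as the members do, the mean was 25.3% at gene ends, 0.33 points above that elsewhere. Single libraries ranged from 18.7% to 32.0% at gene ends and from 14.1% to 48.8% elsewhere. Wild-type replicate 2 had H3K4me2 at 43.3% of all kept regions, against 21.4% in wild-type replicate 1 and 18.9% and 16.7% in KO EB. The mean elsewhere thus leaned on that library, and no lack of a gene-end difference at kept regions is read from it.

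Of the 52 members with H3K4me2 in both wild-type EB lists, 38 (73.1%) were at gene ends and their median width was 4138.5 bp. The 8 highest-ranked lay at Rif1, Flcn, Kat7, Msh6, Elovl6, Srbd1, Usp24 and Rnf13, and 6 of these, all but Elovl6 and Srbd1, had H3K4me2 in both KO EB lists too. The Rnf13 region (chr3:57730577-57735847), 196 bp from the gene of a ubiquitin ligase, had H3K4me2 at the 86.1st and 97.9th percentiles in KO EB, against the 90.2nd and 87.9th in wild-type EB. Elovl6 (chr3:129529233-129532002), a fatty acid elongase gene, was at the 95.4th percentile in KO EB replicate 2 with no peak in replicate 1, against the 89.5th and 81.7th in wild-type EB. Rif1 (chr2:52068457-52071928) controls replication timing and telomeres, Flcn (chr11:59810318-59816119) encodes folliculin, a regulator of nutrient signalling, and Msh6 (chr17:87971041-87973883) acts in mismatch repair.

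Members with H3K4me2 in both KO EB lists and in neither wild-type EB list included regions at Cat, Col1a2, Tcf7l2, Hspd1, Pard3, Cdca4, Notch1 and Sim2. Their KO peaks were weak. The Cat region (chr2:103479548-103481555), in the catalase gene, had them at the 38.1st and 29.7th percentiles. The Notch1 region (chr2:26503666-26508446), whose promoter is printed above, had them at the 40.4th and 5.18th, and Sim2 (chr16:94083035-94088623), the gene of a neural transcription factor, at the 11.8th and 5.20th. With 10 members in all, no difference between genotypes is read from this pattern.

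The 8 highest-ranked members with H3K4me1 in both KO EB lists lay at Barx1, Gls2, Frmd8, Cox10, Tmem179, Cercam, Tent4b and Arhgef3, and all 8 had it in both KO ES lists. Near Barx1 (chr13:48658088-48661260), a homeobox gene, the KO EB peaks were at the 80.3rd and 74.99th percentiles and the KO ES peaks at the 96.3rd and 50.7th. The Frmd8 region (chr19:5846548-5852430) had KO EB peaks at the 89.4th and 90.4th percentiles. The Cercam region had H3K4me2 in both wild-type EB lists, at the 1.38th and 29.6th percentiles, and in neither KO EB list.

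H3K4me2 in KO ES cells was more frequent at members than in KO EB. It was at 491 and 586 members (29.1% and 34.7%, mean 31.9 ± 3.98%, SD, n = 2) in KO ES cells, and the difference of KO EB from them was -27.3 points, with an exact permutation p of 0.333, the smallest possible. Over all 33372 regions H3K4me2 was likewise less frequent in KO EB, at 23.1% and 21.5%, against 43.2% and 47.0% in KO ES cells. Over the 1162 regions chosen again from lists cut to equal length within each antibody, the difference of KO EB from KO ES cells was -6.58 points. Both KO ES lists had a peak at 358 members (21.2%), against 39.9% of all regions, and neither at 970 (57.4%), against 49.6% of all regions. Over the 8611 regions with H3K4me1 in both wild-type ES lists, neither KO ES list had a peak at 20.2%. Those sets include regions with H3K4me2 in wild-type ES cells, which the rule kept out of the members, so these contrasts follow in part from the choice. The KO ES H3K4me2 peaks at members were weak, with median scores at the 23.9th and 26.1st percentiles of their lists. They covered a median of 60.8% and 53.7% of the region.

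The members were chosen to lack H3K4me2 in wild-type ES cells, so a gain in KO cannot be read from these counts either. Chosen without wild-type replicate 1, 2317 regions had H3K4me2 at 38.7% and 45.3% in KO ES cells, against 27.1% in the left-out wild-type library. Without replicate 2, 2011 regions had it at 34.3% and 40.7%, against 16.01%. The KO lists were also longer, and replicate 2 was of another library series. With the 4 ES lists cut to 22615 peaks each, the KO values were 23.5% and 22.1%, against 21.1% in wild-type replicate 1, and 22.6% and 20.4%, against 18.8% in replicate 2. The mean excess of KO over the left-out library was 18.2 points with full lists and 2.20 points with equal lists. Regions were also chosen to lack H3K4me2 in both KO ES lists in place of the wild-type ones. With full lists, 1271 regions were chosen in this way and the wild-type lists had H3K4me2 at 17.9% and 13.8% of them, below the 29.1% and 34.7% of KO lists at members. With equal lists, KO had it at 16.5% and 15.0% of 1828 regions chosen on the wild-type lists, and wild type had it at 21.1% and 20.3% of 2029 regions chosen on the KO lists. When the lists that chose the regions were exchanged in this way, the direction between the genotypes thus changed with list length. In the left-out comparison it did not, and with equal lists KO exceeded the left-out library by 1.66 and 2.73 points. No direction of a KO difference is read from these values.

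H3K4me1 and H3K4me2 in KO ES cells went together over members. Of the 874 members with H3K4me1 in both KO ES lists, 256 (29.3%) had H3K4me2 in both. Of the 334 with H3K4me1 in neither, 31 (9.28%) had H3K4me2 in both. No such counts are given for other H3K4me1 regions, so this is not read as particular to the members. Peak strength went with both marks, as given by rank group above, and its part was not tested. In contrast to H3K4me2 in EB, H3K4me2 in KO ES cells was less frequent at gene ends, at 21.4% and 26.7% in the 2 libraries and a mean of 33.9% elsewhere, a difference of -9.83 points (exact sign permutation p = 0.5, the smallest possible over 2 libraries). Regions with H3K4me2 in both KO ES lists and a high wild-type H3K4me1 rank included AW554918, Efnb1, Kif3a, Atxn7, Rufy1, and intergenic regions nearest to Bckdhb and G2e3. The Efnb1 region had H3K4me2 at the 51.9th and 44.7th percentiles of the KO ES lists.

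Compared with ES-only regions that carried H3K4me2 in wild-type ES cells, members had H3K4me1 less often in all 4 KO lists. The mean share was 34.8% at members and 40.3% at those 2773 regions, a difference of -5.43 points (-8.08 to -2.64; two-sided exact sign permutation p = 0.125, the smallest possible). With the higher-scoring 50% of each list it was -1.49 points with an exact p of 0.25, so members were no longer lower in all 4 lists. It was -2.03 points when a peak had to cover 50% of a region and -3.45 points without wild-type ES H3K4me2 replicate 1. H3K4me2 over the 6 lists outside the rule was at 14.1% of members and 52.2% of those regions, a difference of -38.2 points, lower in 6 of 6 libraries (-61.4 to -24.5; exact p = 0.0312, the smallest possible). The sets were chosen on the same mark in wild-type ES cells, so this difference follows in part from the choice and the p-value is no independent evidence of it. The widest gaps were in the KO ES lists, where 90.5% and 94.8% of the comparison regions had H3K4me2. In EB alone, KO libraries had it at 4.56% and 4.68% of members, against 31.9% and 29.1% of the comparison regions, and wild-type libraries at 4.20% and 7.16%, against 30.1% and 36.9%. Members were also narrower and of lower score, with medians at the 56.0th and 49.3rd percentiles, against the 65.7th and 59.4th for the comparison regions, and the part of this was not tested.

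Kept regions, which have no H3K4me2 in wild-type ES cells either, differed from members in the same direction. H3K4me1 over the 4 KO lists was at 34.8% of members and 63.9% of the 323 kept regions, a difference of -29.1 points (-55.0 to -9.65; exact p = 0.125, the smallest possible). Kept regions were chosen for H3K4me1 in wild-type EB and members for its absence there, so the gap in the KO EB lists restates the choice in KO libraries. In KO EB the kept regions had it at 59.7% and 41.8%, against 4.74% and 2.66% of members. In KO ES cells they had it at 77.1% in both libraries, against 67.4% and 64.5% of members. H3K4me2 over 6 lists was at 14.1% of members and 28.8% of kept regions, a difference of -14.7 points, lower in 6 of 6 libraries (-36.2 to -2.82; exact p = 0.0312, the smallest possible), and it was -8.72 points with the higher-scoring 50% of each list. These lists pool KO ES, KO EB and wild-type EB libraries, and 4 are of EB, the stage on which the sets were chosen to differ in H3K4me1. The p-value is therefore no independent evidence of a difference. The gap was widest in wild-type EB replicate 2, the library of the other series, at 7.16% of members and 43.3% of kept regions. In KO ES replicate 1 the gap was the smallest, at 29.1% of members and 31.9% of kept regions. Members were narrower, at a median of 2411 bp against 3911 bp for kept regions.

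**Figure D5:**
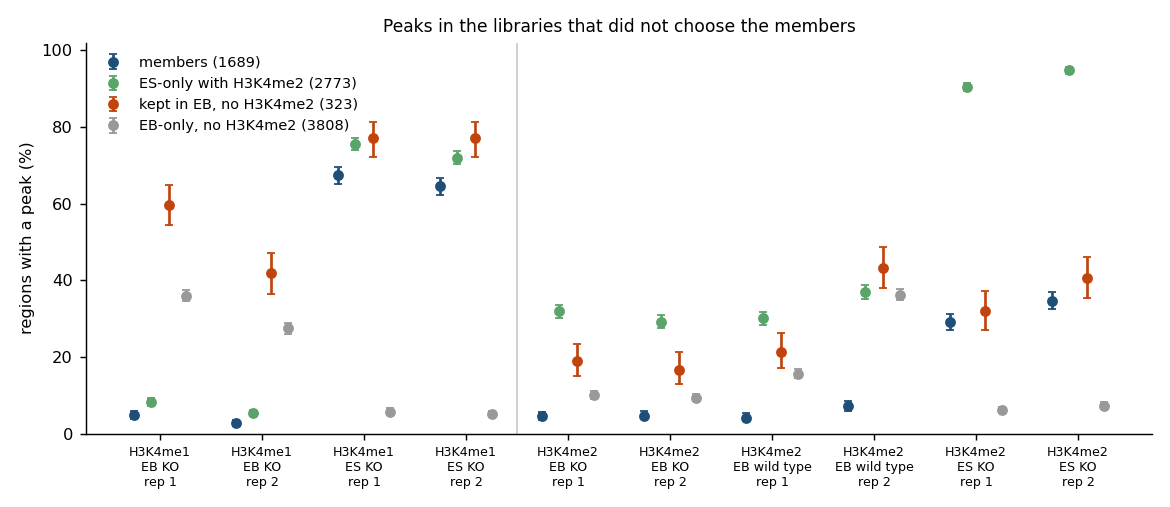
Share of regions (%, 95% Wilson intervals) with a peak in each of the 10 H3K4me libraries that did not choose the members, for the members and 3 other sets of H3K4me1 regions. Members are lowest of the 4 sets in all EB libraries, and in KO ES cells lie below kept regions for both marks and far below ES-only regions with H3K4me2 for that mark.

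PRDM16 peaks were rare at members. In the PRDM16 lists, KO EB libraries had a peak at 3 and 0 members and wild-type EB libraries at 1 and 2, while KO ES libraries had one at 3 and 7 and wild-type ES libraries at 5 and 4. Since KO libraries also held such peaks, they are not read as PRDM16 binding. In all, 16 members (0.947%) had a PRDM16 peak in at least 1 list, 14 of them in a single list, against 368 of 33372 regions (1.10%). The other 2, near Tmem267 and in Nsf, had one in 7 and 4 of the 8 lists, so the counts per library repeat the same members. The 8 highest-ranked lay in or near Tcam1, Hnrnpf, Tmem248, Tmem267, Pard6b, Castor2, Hoxb8 and Nsf. The Tmem248 region (chr5:130217396-130222356) also had H3K4me2 in both KO EB and both wild-type EB lists.

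Members lay at 24 genes of 15 lists of developmental and control genes, with shares of 0% to 19.2% by list, against 5.01% of all protein-coding genes. Any merged H3K4me1 region lay at 11396 of the 21887 protein-coding genes. By list this ran from 8 of 18 mature tissue genes to 24 of 26 Wnt, BMP and Nodal genes, and its part in the shares was not tested. Of 35 naive pluripotency genes, 3 did: Dppa3, Esrrb and Klf5. Esrrb encodes an orphan nuclear receptor of the naive network, and its region inside the gene (chr12:86385819-86388796) had scores of 78.73 and 58.96 in wild-type ES cells, and H3K4me1 in both KO ES lists but in no KO EB list. The Dppa3 region (chr6:122624010-122629517), at the gene of a maternal factor that protects DNA methylation after fertilisation, had H3K4me1 in 1 KO ES list. Klf5 (chr14:99294043-99297260), a Krüppel-like factor gene, was among the few with H3K4me2 in EB, in both KO lists (64.2nd and 54.3rd percentiles) and in 1 wild-type list (50.2nd). Of 17 primed epiblast genes Etv5 and Fgf8 held a member, each near the gene rather than in it; that of Fgf8 was nearest to Npm3.

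Lineage genes also held members. Of 25 neuroectoderm genes, En2, Pax7 and Sox1 had one, and the Sox1 region (chr8:12399140-12402799), at the gene of an early neural factor, had H3K4me1 in 1 KO ES and 1 KO EB list. Pdgfra was the 1 of 24 primitive streak and mesoderm genes, with a 9023 bp region (chr5:75148247-75157269) over its start that had H3K4me1 in 1 KO ES list. Spi1 (1 of 18 blood and endothelial genes), Foxa1 (1 of 18 endoderm genes) and Gata3 (1 of 14 trophoblast genes) encode lineage transcription factors. The Foxa1 region (chr12:57547940-57551363) was the strongest of all list members, with wild-type ES scores of 149.87 and 164.61, and in KO ES cells it ranked at the 95.8th and 80.5th percentiles. None of these 3 regions had a peak for either mark in EB. Hoxb7 and Hoxb8 shared 1 member (chr11:96283112-96287885), which had no H3K4me peak outside the wild-type ES lists, and the other 37 Hox genes held no member. ES-only regions with H3K4me2 lay at 3 neuroectoderm, 5 primitive streak and mesoderm, 3 blood and endothelial, 5 endoderm, 1 trophoblast and 6 Hox genes. Over all 21887 protein-coding genes, 1914 had such a region.

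Signalling and chromatin genes were represented by a few each. Of 20 MAPK and LIF signalling genes Gab1 and Map2k1 held a member, and of 26 Wnt, BMP and Nodal genes Ctnnb1 and Fzd7. The Ctnnb1 region (chr9:120960612-120963566), 104 bp from the gene of beta-catenin, had H3K4me1 (86.4th and 83.8th percentiles) and H3K4me2 (31.4th and 16.1st) in both KO ES lists. Chromatin and DNA methylation genes had the highest share, 5 of 26 (19.2%): Ezh2, the Polycomb methyltransferase, the demethylase genes Kdm4c and Kdm6b, Kmt2c, which encodes an H3K4 monomethyltransferase, and Tet3. Any merged H3K4me1 region lay at 22 of these 26 genes, against 11396 of all 21887 protein-coding genes, and ES-only regions with H3K4me2 lay at 4 of them. Their list also has long genes, with a median span of 75349.5 bp against 17169 bp for all. None (0) of 22 adhesion and cytoskeleton genes held a member, though their median span was 68001 bp and 18 had an H3K4me1 region. The parts of gene length and of H3K4me1 regions at the genes were not tested. The Kmt2c region (chr5:25273277-25276847) had H3K4me1 (80.0th and 51.7th percentiles) and H3K4me2 (55.3rd and 38.8th) in both KO ES lists, and the Ezh2 region (chr6:47559606-47561475) had neither. None of 16 feeder or fibroblast genes and 15 housekeeping genes held a member, and Mbp was the 1 of 18 mature tissue genes.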

How the data were processed

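CUT&RUN peak lists of 24 libraries were used, grouped by sample title. The authors deposited 1 list per library with chromosome, start, end, name and a score. The positions are other values, in bp, as deposited, with starts counted from 0 and printed here from 1. The score is the authors' own, as deposited, with its unit not given in the sources used here. Per the submitters' processing notes, reads were on mm10, and MACS2, Bowtie2, HOMER 4.10, SAMtools 1.5, deepTools and bedtools are named without roles. No source used here gives control libraries, duplicate removal, depth scaling or read totals.

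The members and gene lists were chosen with earlier results of these data known. Peaks overlapping by 1 bp were merged, and an overlap of 1 bp also counted as presence in a library (Python 3.11.15, numpy 2.4.6, pandas 2.3.3, scipy 1.17.1, matplotlib 3.10.9). Shares of regions per library were compared with two-sided exact permutation tests over libraries, or exact sign permutations of differences within libraries. Wilson intervals (95%) cover only counting error. The scripts were tested on simulated data. Genes came from a RefSeq table (GRCm38.p6, 21887 protein-coding genes), which matched 314 of 315 list genes.

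Members were ranked by the lower of their 2 wild-type ES score percentiles. Named were the 12 highest within 2500 bp of a gene, the 8 highest of each pattern of presence, the 8 genes with most members, the 8 highest with a PRDM16 peak, and list genes with a member. Of these, 2 members are not reported here. Kank3, Trim24, Cyp26a1 and Kcnk4 were chosen after their values were seen. Alternatives covered score threshold, list length, overlap, merging distance, distance from H3K4me2, windows, library series, replicate block and each library left out. Where an alternative changed a list or setting used by the rule, the members and comparison regions were chosen again.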

Additional observations from a re-analysis of the deposited data

How the results depend on the processing

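Of 143 alternative values, 118 kept their direction and their side of the test's threshold, or, where there was no test, stayed within a set margin. For the 3 differences between groups and the H3K4me1 differences between sets of regions, no p could pass the threshold. Their side of it was fixed and only their direction could change, so the count of 118 is no measure of robustness. H3K4me2 in KO EB minus wild-type EB was 0.41 points without the libraries of the other series, and -2.55 to 0.41 points when single libraries were left out. The choice of members gave 1841 to 4416 regions with 1 library left out. The share of members at gene ends was 18.0% when a peak had to cover 50% of a region, 15.4% with the higher-scoring 50% of each list, 16.01% with equal list lengths, 15.0% with a window of 1000 bp, 41.5% with one of 10000 bp, and 17.4% to 21.2% with single libraries left out. With single libraries left out, the H3K4me2 difference was -45.1 to -31.4 points from ES-only regions with H3K4me2 and -17.3 to -10.4 points from kept regions, with exact p of 0.0312 to 0.0625, because 5 libraries cannot go below 0.0625. Chosen after seeing the data, equal list lengths within an antibody and stage gave a KO minus left-out wild-type difference of 2.20 points for H3K4me2 in ES cells (18.2 with full lists) and 1.51 points for H3K4me1 in EB (-3.49 with full lists). With equal lists and members chosen again from them, KO EB minus KO ES for H3K4me2 was -6.58 points, against -27.3 with full lists. The replicate block left the 3 differences between groups at -62.3, -1.07 and -27.3 points with exact p of 0.5, 1 and 0.5. For each of these 3 differences, peak presence in replicate 1 minus replicate 2 was correlated between the 2 groups over all merged regions. The correlations were -0.00398, -0.00459 and -0.016, so the numbers are not taken to pair the libraries. Peak lists give no depth, so no value here separates depth from the amount of a mark.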

Other observations

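The hairpins of 2 annotated microRNAs lay inside members, Mir7227 on chromosome 4 and Mir1929 on chromosome 10. In KO EB the H3K4me1 peaks at members were of lower rank than in KO ES cells: their median scores were at the 40.5th and 42.3rd percentiles of the KO EB lists, against the 61.6th and 62.7th of the KO ES lists. H3K4me2 peaks at members in EB were at the 28.5th and 26.4th percentiles in KO and the 25.5th and 26.3rd in wild type. At least 1 EB list of either mark had a peak at 258 members (15.3%).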
